A study of Mus musculus with 16 samples.

Results

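A group of 8 genes with metabolic or otherwise unusual roles was followed across 16 mouse Illumina arrays: 1700007K13Rik, Acer2, Dcxr, Ephx1, Abhd4, Pltp, Eef1a2 and Krtap1-5. They were taken by gene symbol from the 15967 genes named on the array, and were selected on their log2 values, which were high together with those of known p53 targets on arrays of treated cells. Differences between treated and untreated arrays are therefore described here without a test. Each gene is represented by its brightest detected probe, and its values are the authors' deposited log2 values, in which 0 is the median of that probe over the 16 arrays.

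p53 is a transcription factor that is stabilised when DNA is damaged and then switches on genes of cell cycle arrest, repair and cell death, among them Cdkn1a, the gene of the kinase inhibitor p21, and Mdm2, the gene of the ligase that degrades p53. Beside these it also reaches genes of lipid and sugar metabolism. Acer2 encodes a Golgi ceramidase, Abhd4 a lipase of N-acyl phospholipids, Pltp a protein that carries phospholipids between lipoproteins, Dcxr a reductase of dicarbonyls and xylulose, and Ephx1 the microsomal epoxide hydrolase. 1700007K13Rik, listed by RefSeq with the synonym Rbest47, is a gene of motile cilia and has been described as a p53 target in mouse cells. Eef1a2 encodes the form of elongation factor 1 alpha that muscle and neurons use, and Krtap1-5 a keratin-associated protein of hair.

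The cells were mouse embryonic fibroblasts (MEFs), with 1 array per condition and no replicates. The first set of 8 arrays is labelled as RasV12/E1A-transformed MEFs, which are either Smad1f/f (floxed Smad1) or Smad1-/-. In each genotype there was an untreated control at 0 h, and arrays at 12 h of BMP2 (a bone morphogenetic protein, which signals through SMAD1), of Adriamycin (ADR, the DNA-damaging drug doxorubicin) or of both. A treated array of this set therefore differs from its control in time as well as in agent. The second set of 8 arrays is labelled as non-transformed passage 2 primary MEFs, with control, BMP2, ADR and BMP2+ADR arrays at 8 h and again at 16 h. Doses differ within the labels, from 100 ng/ml BMP2 with 0.3 uM ADR in sample titles to 50 ng/ml with 1 ug/ml doxorubicin in the design text. Nothing in the sources used here says whether the cells of a set came from 1 clone or from pooled embryos.

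Several measurements go against the labels, and agents are therefore named below as labels. Of 35 measured p53 targets, 0 passed in either direction on the primary arrays labelled ADR, where 0.35% of all genes rose and 0.212% fell. On those labelled BMP2 13 rose, where 6.75% of all genes rose (limma, Benjamini-Hochberg adjusted p under 0.05, as everywhere below). Id1, a classical BMP target, was higher by 1.30 and 1.08 (log2, at 8 h and 16 h) on the primary arrays labelled ADR and was at -0.26 and -0.17 on those labelled BMP2. In the transformed set Id1 was at -0.87 and 0.09 with the ADR label and at -0.13 and -0.79 with the BMP2 label, so the primary pattern of Id1 was not seen there. Id3, of the same family, was at 0.77 and 0.86 with the ADR label and at -0.18 and 0.04 with the BMP2 label in the primary set. In the transformed set Id3 was at -1.13 and 0.05 with the ADR label and at -1.71 and -1.72 with the BMP2 label. In the transformed set 2 of 33 p53 targets rose and 4 fell with the ADR label, against 18 and 3 with the BMP2 label. Of all genes 1.57% rose and 4.6% fell with the ADR label, and 26.9% and 24.5% with the BMP2 label. All 12 fibroblast markers were detected on the 8 transformed arrays, while Col1a1, Col1a2, Col3a1, Thy1, Dcn, Lum and Postn were detected on 0 of the 8 primary arrays. Of the other 5 fibroblast markers Vim, Fn1, Pdgfra and Pdgfrb were detected on all 8 primary arrays and S100a4 on 7. Of these Vim alone was bright there, with a median signal of 18873.4. Fn1, Pdgfra, Pdgfrb and S100a4 had medians of 233.8, 105.2, 115.4 and 97.2, against 2878.6, 465.4, 489.4 and 3945.2 in the transformed set. Of 9 epithelial markers 5 were undetected on the primary arrays, while Krt18 had a median of 2093.4 there and of 99.6 on the transformed arrays. Smad1 itself differed by 0.013 ± 0.111 (log2, SE) between the genotype labels, with adjusted p = 0.984 in limma, and it is not known if its probe covers the deleted exons. Id1 was higher on the Smad1-/- than on the Smad1f/f array at each label. The differences were 1.40, 0.75, 2.37 and 0.95 (control, BMP2, ADR, both). Id3 was higher by 0.64, 0.63, 1.82 and 1.28, and the cause was not tested. Between 40.1% and 46.8% of 24613 probes were detected per array at a detection p under 0.05, and precision is set by the small number of arrays.

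1700007K13Rik was high on the transformed arrays with BMP2 in their label. On the transformed arrays, Smad1f/f before Smad1-/-, its log2 value was -0.47 and -0.44 without agent, 2.37 and 2.29 with the BMP2 label, -0.58 and -0.77 with the ADR label, and 3.87 and 3.70 with both. The 4 arrays with a BMP2 label, alone or with ADR, lay far above the other 4, and the pair with both agents lay above the pair with BMP2 alone. The 2 arrays with the ADR label alone did not detect the probe. The mean difference from the controls was 2.79 ± 0.08 (SD of 2 pairs) with the BMP2 label and 4.25 ± 0.14 with both, a 19-fold higher signal. In the primary set, control, BMP2, ADR and BMP2+ADR in turn, the value was -0.81, -0.34, -0.64 and -0.40 at 8 h and 0.59, 1.16, 0.34 and 1.04 at 16 h. The probe was not detected on any array at 8 h, and at 16 h it was 0.57 higher with the BMP2 label and 0.45 higher with both. The 250 bases before the start of this gene (RefSeq, GRCm38.p6, chr2:28466325-28466574, minus strand) are shown because they alone among the 9 promoter windows of the 8 genes hold a p53 half-site, in capitals.

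1700007K13Rik: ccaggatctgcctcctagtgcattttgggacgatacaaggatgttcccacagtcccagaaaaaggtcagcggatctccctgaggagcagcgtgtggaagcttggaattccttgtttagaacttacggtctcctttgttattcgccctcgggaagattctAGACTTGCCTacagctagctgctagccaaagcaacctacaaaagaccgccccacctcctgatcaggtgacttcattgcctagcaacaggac

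The half-site matches on both strands and begins 91 bases before the start. The same motif, searched on both strands, is present in 7.13% of 32851 mouse promoter windows of that length, so its presence in 1 of 9 windows is a description of the letters and not of a bound site.

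**Figure D1:**
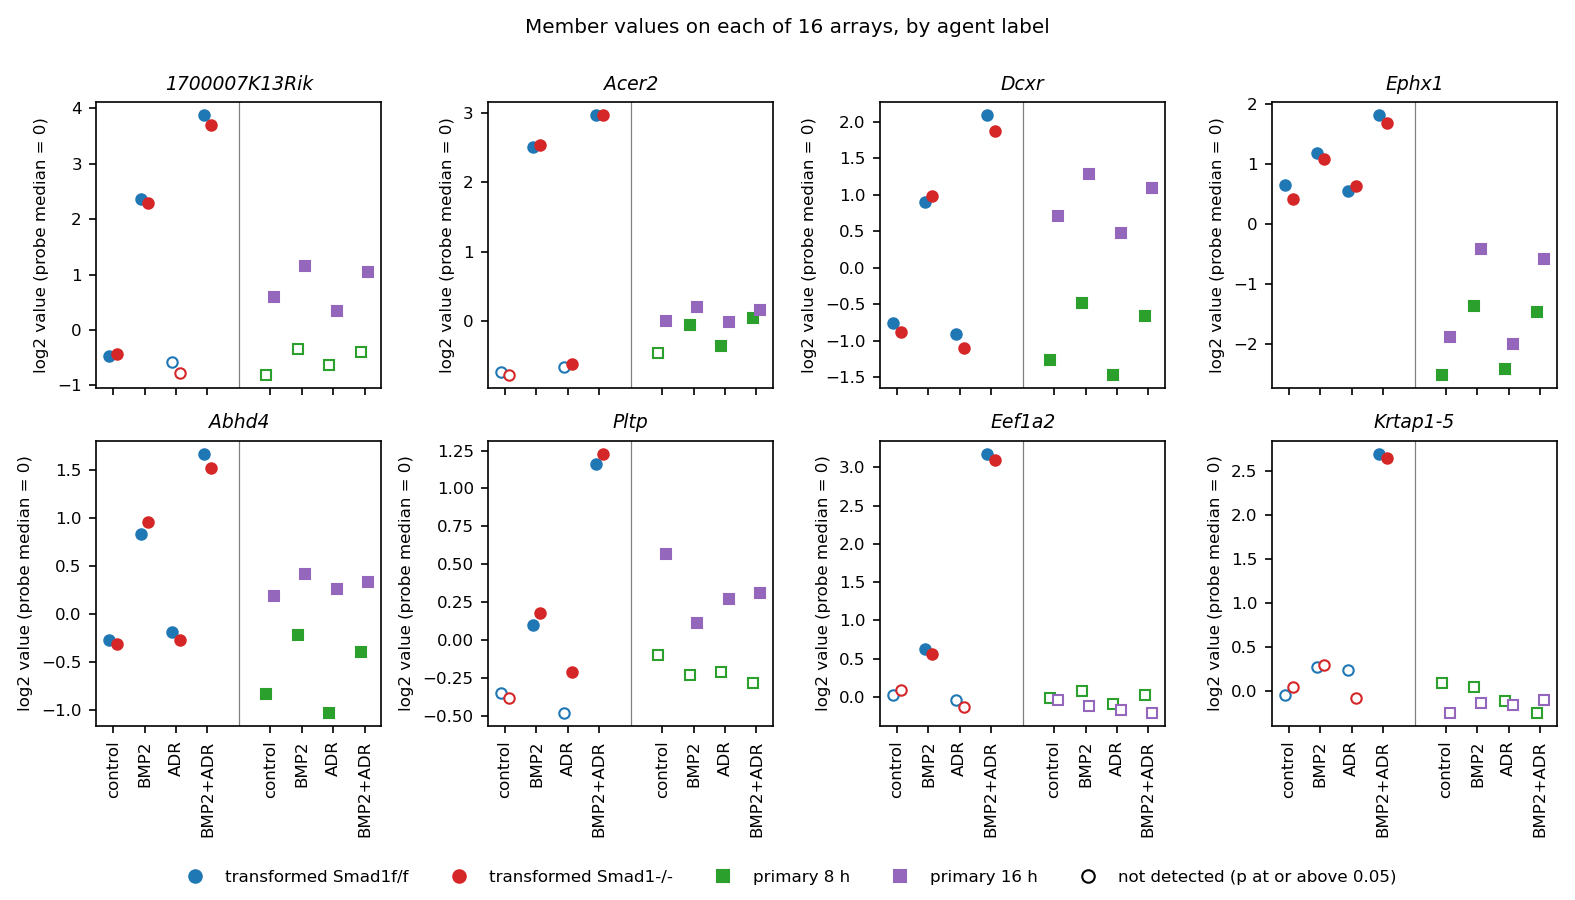
Log2 value (y axis, probe median at 0) of each gene on the 16 arrays, by agent label (x axis), with the transformed set left and the primary set right of the grey line in each panel. Filled points were detected and open points were not, and each point is 1 array. Eef1a2 and Krtap1-5 are open on all 8 primary arrays, and the BMP2-labelled arrays of Acer2, Dcxr, Ephx1 and Abhd4 lie above their controls in every pair on both sides (the Acer2 control at 8 h is open).

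Acer2 is the first of 3 genes of lipid metabolism. Its values on the transformed arrays were -0.73 and -0.77 without agent, 2.51 and 2.54 with the BMP2 label, -0.66 and -0.61 with the ADR label, and 2.96 and 2.96 with both. The genotypes lay within 0.04 of each other at each label, and the 4 arrays with BMP2 in their label did not overlap the rest. Neither control array detected the probe, so its fold is a lower bound, taken against the higher of each control array's lowest detected signal and the probe's own signal. The signal was at least 8.86-fold higher with the BMP2 label and at least 12.0-fold higher with both, and adding ADR to BMP2 moved it by 0.44 ± 0.02. On the primary arrays the values were -0.45, -0.05, -0.35 and 0.05 at 8 h and 0.01, 0.21, -0.01 and 0.16 at 16 h, in the same order of labels as above. The control at 8 h was undetected, and at 16 h the BMP2 label differed from control by 0.20 and the BMP2+ADR label by 0.15.

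The other ceramidases on the array had smaller values. Acer3 was detected on all 16 arrays and differed by 0.12 with both agents in the transformed set (adjusted p = 0.265, limma), and Asah2 by 0.21 (adjusted p = 0.0567). Asah1, the lysosomal acid ceramidase, rose by 0.23 (adjusted p = 0.017), and Acer1 was not detected. Of the 23 tested sphingolipid enzymes other than Acer2, 7 rose and 3 fell in that comparison, with a median of 0.16, where 26.0% of 10275 genes rose and 33.2% fell. Smpd2, a neutral sphingomyelinase, rose by 1.36 ± 0.097 (SE) and Ugcg, which adds glucose to ceramide, fell by 1.06 ± 0.13. Among primary arrays 3 of 22 rose and 1 fell with the BMP2 label, where 6.75% of 9433 genes rose and 7.31% fell, and Sgms2, a sphingomyelin synthase, rose by 0.97 ± 0.11.

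Abhd4 was detected on all 16 arrays. In the transformed set its values were -0.27 and -0.31 without agent, 0.83 and 0.96 with the BMP2 label, -0.19 and -0.27 with the ADR label, and 1.67 and 1.52 with both. The 3 levels did not overlap, with control and ADR arrays together at the bottom. The mean difference was 1.18 ± 0.12 with the BMP2 label and 1.89 ± 0.07 with both, the latter 3.7-fold. Its primary values were -0.83, -0.22, -1.03 and -0.40 at 8 h and 0.19, 0.42, 0.26 and 0.33 at 16 h. The BMP2 label exceeded control by 0.61 at 8 h and by 0.23 at 16 h, so its mean of 0.42 has a spread of 0.27. Of the 17 other N-acylethanolamine and ABHD hydrolases tested in the transformed set, 8 rose and 4 fell with both agents, with a median of 0.17. In that comparison 26.0% of all genes rose and 33.2% fell. Abhd14a rose by 1.1 ± 0.098 and Gde1, a phosphodiesterase that acts on the product of Abhd4, by 0.97 ± 0.098. Of 15 in the primary set 0 rose and 2 fell with the BMP2 label, where 6.75% of all genes rose and 7.31% fell. These were Abhd1, by 0.56 ± 0.10, and Faah, the hydrolase of anandamide, by 0.39 ± 0.11.

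Pltp was dim, with signals from 72.5 to 264.8, and with a BMP2 label it was above its controls in the transformed set and below them in the primary set. Its values on the transformed arrays were -0.35 and -0.38 without agent, 0.10 and 0.18 with the BMP2 label, -0.48 and -0.21 with the ADR label, and 1.16 and 1.23 with both. Its signal was at least 1.32-fold higher than the undetected controls with the BMP2 label and at least 2.75-fold higher with both. With ADR added to BMP2 the value was higher by 1.06 ± 0.01, a comparison in which both sides were detected and both were taken at 12 h. On the primary arrays the values were -0.10, -0.23, -0.21 and -0.28 at 8 h, all undetected, and 0.57, 0.11, 0.27 and 0.31 at 16 h. The BMP2-labelled array at 16 h was thus 0.45 lower than its control and the array with both agents 0.25 lower. A second Pltp probe was detected on 5 arrays with signals from 75.1 to 111.4, so the sizes above rest on the brighter probe alone. Over the alternatives run, the transformed difference with both agents ranged from 1.04 to 2.44.

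Pltp is a textbook target of the liver X receptors (LXR), and a mixed list of other lipid transfer genes and LXR targets was tested beside it. Of 10 tested in the transformed set 4 rose and 3 fell with both agents, with a median of 0.16. Of 8 in the primary set 0 rose and 3 fell with the BMP2 label, with a median of -0.21. Of all genes 26.0% rose and 33.2% fell in the first case, and 6.75% and 7.31% in the second. Abcg1, a cholesterol exporter, rose by 2.47 ± 0.098 in the first case and fell by 1.11 ± 0.11 in the second. Lpcat3, an acyltransferase of membrane phospholipids, rose by 1.25 ± 0.12 in the transformed set. The difference between the sets was not tested for any of these genes, since the controls and times of the sets do not match.

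Dcxr was detected on all 16 arrays and had 3 separate levels on the transformed arrays. Its values there were -0.76 and -0.88 without agent, 0.90 and 0.98 with the BMP2 label, -0.91 and -1.1 with the ADR label, and 2.09 and 1.87 with both. The mean difference was 1.76 ± 0.14 with the BMP2 label and 2.81 ± 0.07 with both, a 7.01-fold higher signal, and ADR added 1.05 ± 0.21 to BMP2. Its values in the primary set were -1.26, -0.48, -1.47 and -0.66 at 8 h and 0.71, 1.28, 0.48 and 1.09 at 16 h. At both times the 2 arrays with BMP2 in their label were the highest and the ADR array the lowest, and the BMP2 label exceeded control by 0.79 and 0.56. Of the other enzymes of carbonyl and uronate-xylulose metabolism, 4 of 8 rose and 2 fell with both agents in the transformed set. In the primary set 4 of 8 rose and 1 fell with the BMP2 label. Of all genes 26.0% rose and 33.2% fell in the first comparison, and 6.75% and 7.31% in the second. Cbr3, a carbonyl reductase, rose in both, by 1.83 ± 0.093 and by 0.44 ± 0.11.

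Ephx1 was higher than control by more than 1 in both pairs of both sets with BMP2 and ADR together. On the transformed arrays it was at 0.66 and 0.42 without agent, 1.18 and 1.08 with the BMP2 label, 0.56 and 0.63 with the ADR label, and 1.81 and 1.69 with both. The mean difference was 0.59 ± 0.10 with the BMP2 label and 1.21 ± 0.09 with both, the latter 2.32-fold. On the primary arrays it was at -2.51, -1.36, -2.41 and -1.47 at 8 h and at -1.88, -0.42, -2.0 and -0.58 at 16 h. At each time the arrays labelled BMP2 and BMP2+ADR lay together, well above control and ADR. The mean difference there was 1.30 ± 0.22 with the BMP2 label, a 2.47-fold higher signal, and 1.17 ± 0.18 with both.

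Ephx1 also belongs to the genes induced by NRF2, the transcription factor of the oxidative stress response. Of 13 other NRF2 targets tested in the transformed set 10 rose and 1 fell with both agents, with a median of 0.62. In that comparison 26.0% of all genes rose and 33.2% fell. Hmox1, the heme oxygenase, rose by 1.89 ± 0.085 and Srxn1, the sulfiredoxin, by 1.73 ± 0.11. In the primary set 1 of 11 rose and 2 fell with the BMP2 label, with a median of -0.01, where 6.75% of all genes rose and 7.31% fell. Gsta4, a glutathione transferase, fell by 0.45 ± 0.11 there. Of the other epoxide hydrolases, Ephx2, the soluble enzyme, was at 0.00 with both agents in the transformed set (adjusted p = 0.999, limma) and rose by 0.43 with the BMP2 label in the primary set (adjusted p = 0.0091), and Ephx3 was not detected. In the wider list of xenobiotic enzymes, which shares Nqo1, Gsta4 and Gstm1 with the NRF2 list, 4 of 10 rose and 2 fell in the first comparison and 2 of 7 rose and 2 fell in the second. Gstt1, another glutathione transferase, rose by 1.64 ± 0.11 in the transformed set, and Gstm2 by 0.65 ± 0.089 in the primary set.

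Eef1a2 and Krtap1-5 were high on the 2 transformed arrays with both agents and undetected on all 8 primary arrays. The log2 value of Eef1a2 on the transformed arrays was 0.02 and 0.09 without agent, 0.62 and 0.56 with the BMP2 label, -0.04 and -0.13 with the ADR label, and 3.18 and 3.10 with both. The signal was at least 1.32-fold higher than the undetected controls with the BMP2 label and at least 7.73-fold higher with both. Between the BMP2 arrays and those with both agents, all detected and all at 12 h, the difference was 2.56 ± 0.01, or 5.88-fold. Primary values lay between -0.21 and 0.07. A second Eef1a2 probe was detected on 0 arrays. Eef1a1, the form that most cells use, was detected on all 16 arrays and differed by 0.04 with both agents in the transformed set (adjusted p = 0.708, limma). Of the 9 other translation elongation factors tested there 1 rose and 5 fell, where 26.0% of all genes rose and 33.2% fell. Eef1e1, a synthetase-associated factor, fell by 0.86 ± 0.16. Of 9 in the primary set 1 rose and 0 fell with the BMP2 label, where 6.75% of all genes rose and 7.31% fell.

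Krtap1-5 was detected on those 2 arrays and on no other. Its values on the transformed arrays were -0.05 and 0.05 without agent, 0.27 and 0.29 with the BMP2 label, 0.24 and -0.08 with the ADR label, and 2.70 and 2.65 with both, and on the primary arrays they lay between -0.25 and 0.09. With both agents the bead signal was 406.1 and 414.3, at least 4.48-fold higher than the controls and at least 3.92-fold higher than the BMP2 arrays. The array holds 27 other Krtap genes, of which 4 were detected on at least 2 arrays and none had a signal above 109.8.

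The promoters of these last 2 genes are shown because both genes were high on the same 2 arrays and undetected on the primary arrays. Both are 250 bases of RefSeq's GRCm38.p6 on the minus strand, chr11:99581017-99581266 for Krtap1-5 and chr2:181157016-181157265 for Eef1a2, with TATAAA on either strand in capitals.

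Krtap1-5: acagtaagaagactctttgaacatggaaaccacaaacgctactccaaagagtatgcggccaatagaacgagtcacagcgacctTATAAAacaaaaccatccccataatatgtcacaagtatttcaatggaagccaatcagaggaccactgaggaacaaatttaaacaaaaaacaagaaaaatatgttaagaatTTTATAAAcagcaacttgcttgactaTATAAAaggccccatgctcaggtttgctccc
Eef1a2: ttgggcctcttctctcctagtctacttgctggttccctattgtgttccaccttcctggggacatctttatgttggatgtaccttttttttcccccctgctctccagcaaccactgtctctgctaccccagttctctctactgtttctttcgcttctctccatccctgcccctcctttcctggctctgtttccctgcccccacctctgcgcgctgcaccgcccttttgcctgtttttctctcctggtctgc

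TATAAA begins 167, 57, 55 and 31 bases before the start of Krtap1-5 (2 of these overlap, on opposite strands) and is absent from the window of Eef1a2, while 12.4% of all windows hold it. Among the 8 genes Ephx1 is the other one with TATAAA, 214 bases before its start. CCAAT, present in 33.8% of all windows, was found in those of Ephx1, Pltp, Krtap1-5, Dcxr and Abhd4. GGGCGG, present in 32.7%, was found in those of 1700007K13Rik, Pltp, Eef1a2, Acer2 and Abhd4. No motif of these was common to all 8 genes.

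Markers of other cell types were read beside these genes, since hair, muscle and neurons are where Krtap1-5 and Eef1a2 are known from. The summed signal of 8 keratinocyte and hair markers was 713.6 and 1176.0 on the transformed arrays with both agents. On the controls it was 731.8 and 850.0. Krt5, Krt35 and Ivl were undetected throughout, while Lor was detected on all 8 transformed arrays. Of 3 tested 1 rose (Krt14, by 0.97 ± 0.13), where 26.0% of all genes rose and 33.2% fell. Krt14 was detected on the 2 arrays with both agents and on no other, so it entered the fit through them. The 10 muscle and neuron markers summed to 800.9 and 803.9 against 821.5 and 827.6. Myog, Myod1, Ckm, Snap25 and Syp were undetected on the transformed arrays. Tubb3 was detected on all 8 of them and Des on the 2 with both agents, and 0 of 2 tested rose. The 9 epithelial markers summed to 2025.3 and 1699.4 against 806.7 and 765.8, and 4 of 5 tested rose, among them Krt7 by 2.29 ± 0.14 and St14 by 2.16 ± 0.12, while Epcam, Cdh1 and Krt8 were undetected. The 7 endothelial markers summed to 1184.0 and 1294.3 against 522.1 and 548.7 through Mmrn2 and Sox18, with Pecam1, Cdh5, Kdr, Tek and Tie1 undetected. The 4 macrophage and blood markers on the array summed to 736.1 and 821.8 against 506.4 and 437.6, and 2 of 3 rose. Krt19 and Cd14 were among these rises and were detected on no transformed arrays but the 4 with BMP2 in their label. St14 was detected on 3 transformed arrays, 2 of them with both agents. Krt14, Krt19, Cd14 and St14 entered the fit through arrays where they are high, so nothing is read from their rises. The 12 fibroblast markers summed to 57201.1 and 58005.9 against 66675.9 and 67092.6, and 1 rose while 5 fell. The part of the epithelial, endothelial and macrophage markers in these results was not tested, and in bulk RNA fewer cells of a type cannot be told apart from less RNA per cell.

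**Figure D2:**
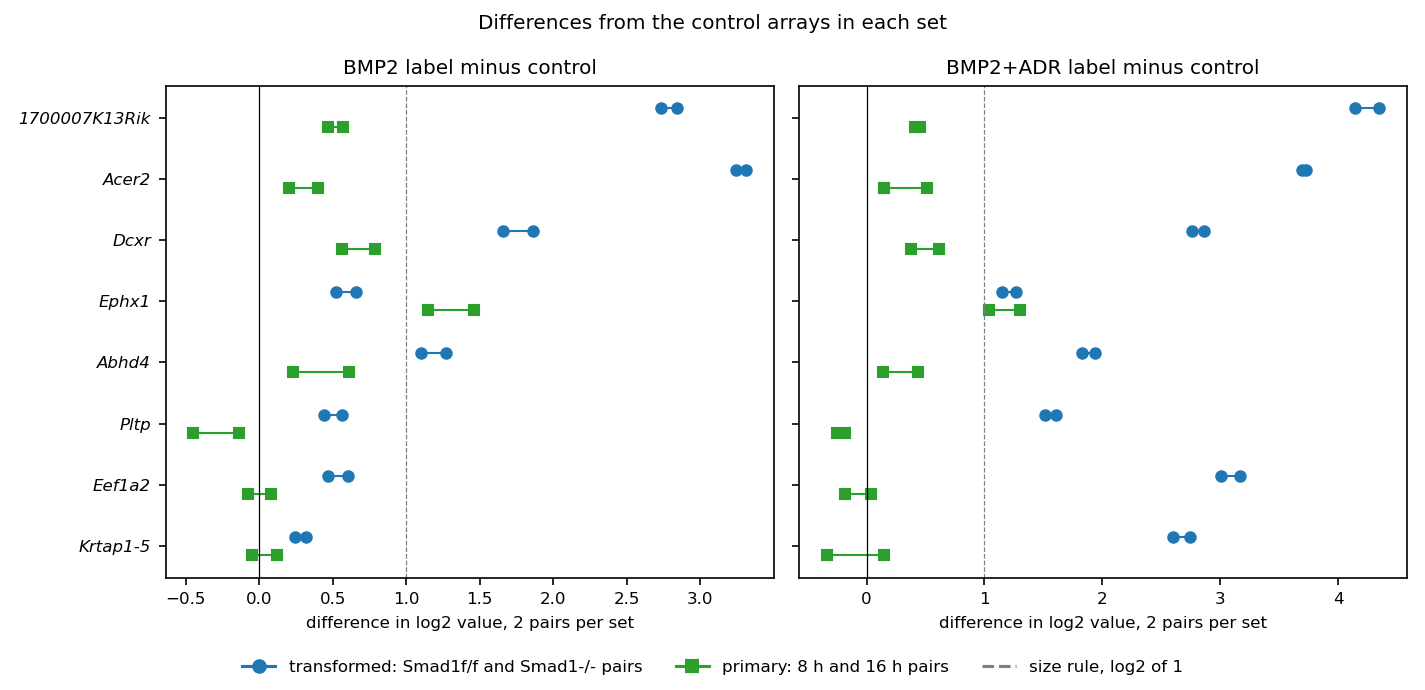
Difference in log2 value (x axis) between the arrays labelled BMP2 (left) or BMP2+ADR (right) and the controls, for each gene (y axis), with 1 point for each pair of arrays in the transformed set (blue circles) and the primary set (green squares). With both agents all 8 genes pass the dashed line at a log2 of 1 in both transformed pairs, and Ephx1 is the one that also passes it in both primary pairs, at 1.04 and 1.30.

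Which genes were raised in both sets was counted by size, a gene being raised in a set if both of its pairs differed from control by at least 1 (log2) for 1 or more agent labels. In the transformed set 8 of 8 met this, in the primary set 1 of 8 and in both sets 1 of 8, which was Ephx1. Of 10982 features the same rule was met by 6.4%, 0.555% and 0.1%, and since the genes were chosen for their high values nothing is read from their counts. The lower pair of Ephx1 was 1.15 with the BMP2+ADR label in the transformed set, and in the primary set it was 1.15 with the BMP2 label and 1.04 with the BMP2+ADR label. With the BMP2 label in the transformed set it was 0.52, outside the rule. The next in the primary set were Dcxr at 0.56, 1700007K13Rik at 0.47 (its 8 h pair, undetected), Abhd4 at 0.23 and Acer2 at 0.20. With a rule of 0.5 Dcxr joined Ephx1 in both sets (8, 2 and 2 of 8, against 15.5%, 2.39% and 0.656% of all features). In the primary set 1700007K13Rik, Acer2 and Pltp had a pair with both arrays detected at 16 h alone, and Eef1a2 and Krtap1-5 had none. Of 35 p53 targets 8 were raised in the transformed set, 1 in the primary set and 1 in both, Pmaip1 (Noxa, a death gene). With the ADR label alone the mean difference of Dcxr, Ephx1 and Abhd4, the genes detected on every array, lay between -0.18 and 0.06 in the transformed set and between -0.22 and -0.01 in the primary set.

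**Figure D3:**
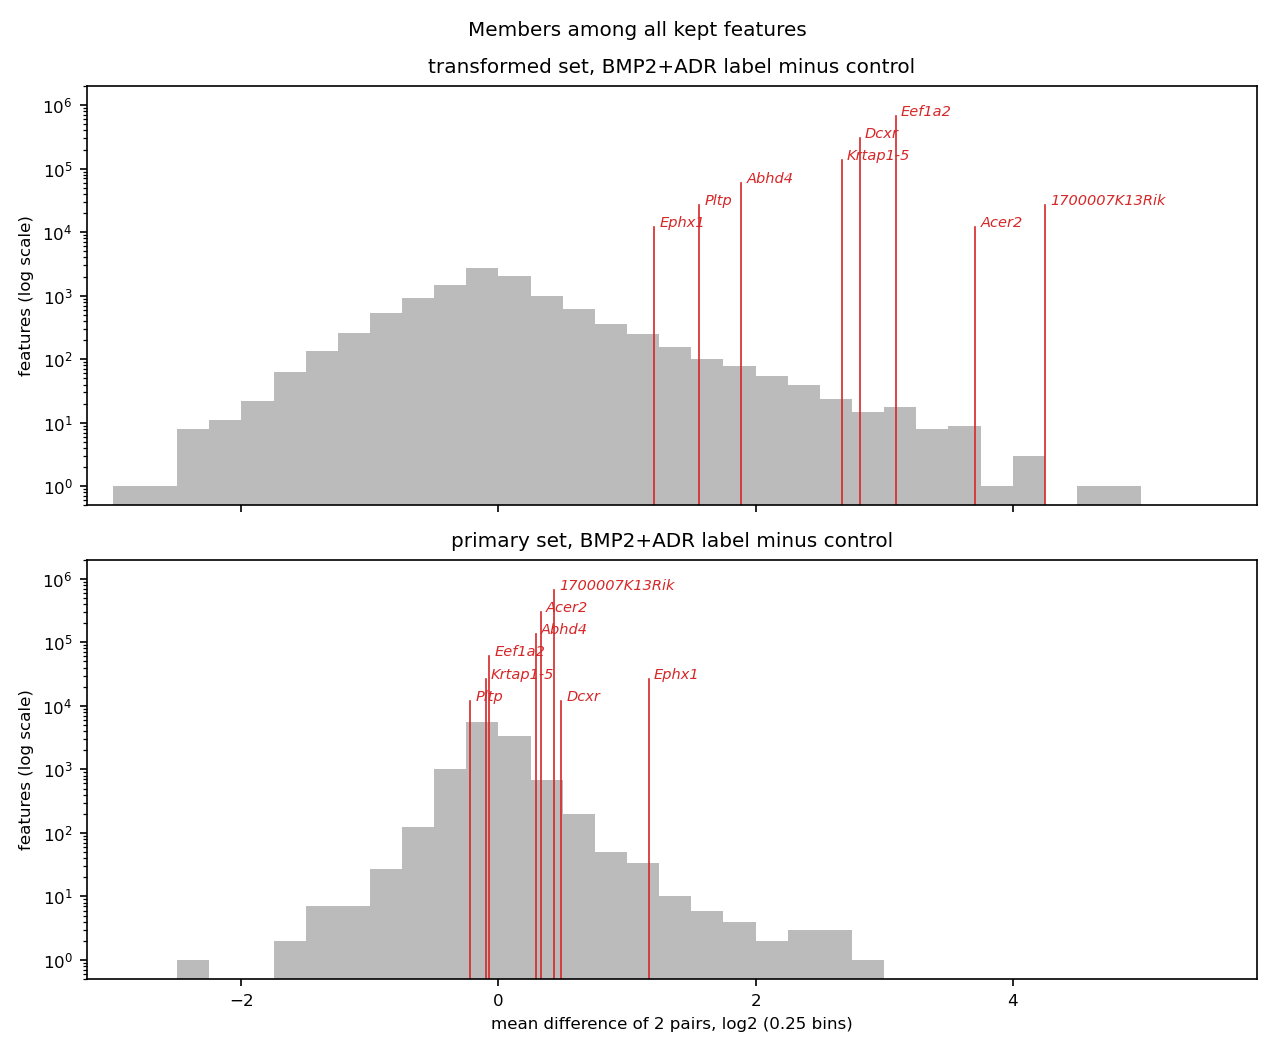
Number of features (y axis, log scale) by mean difference in log2 value between the BMP2+ADR and control arrays (x axis, bins of 0.25) in the transformed set (top) and the primary set (bottom), with each gene of the group marked by a red line. The lines lie between 1.21 and 4.25 in the transformed set and between -0.22 and 1.17 in the primary set, and they show measured values also where a probe was undetected.

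The p53 targets give the frame for these differences. Of 33 tested in the transformed set 18 rose and 3 fell with the BMP2 label, with a median of 0.28, and 23 rose and 0 fell with both agents, with a median of 0.57. Of all genes 26.9% rose and 24.5% fell with the BMP2 label, and 26.0% and 33.2% with both agents. In the primary set 13 of 35 rose and 0 fell with the BMP2 label and 14 rose and 1 fell with both. Of all genes 6.75% rose and 7.31% fell there with the BMP2 label, and 7.45% and 7.16% with both. These comparisons share their control arrays. Ddit4l, an inhibitor of mTOR signalling, rose by 2.66 ± 0.096 in the transformed set with both agents and by 0.92 ± 0.17 in the primary set, and Pmaip1 by 2.46 ± 0.10 and 1.09 ± 0.11. Cdkn1a differed from control by 0.70 and 0.76 with both agents in the transformed pairs and by 1.14 and 0.83 in the primary pairs. Mdm2 differed by 1.35 and 1.43 in the former and by 1.17 and 0.21 in the latter. Scaling to array medians moved the share of rises among passing genes from 52.3% to 28.6% with the BMP2 label in the transformed set and from 51.0% to 69.8% with both agents in the primary set.

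Time is a different contrast from that of agents, but the genes were chosen beside p53 targets over all 16 arrays, and 26 of 35 p53 targets rose with time. The tests below are therefore not independent of the choice. Between 8 h and 16 h in the primary set Dcxr, Abhd4, Ephx1 and Acer2 rose, each higher in 4 of 4 pairs of arrays, where 11.7% of all genes rose and 34.1% fell. Dcxr rose by 1.86 ± 0.070 (SE), or 3.62-fold (adjusted p = 5.72e-10, limma). Abhd4 rose by 0.92 ± 0.092 (adjusted p = 4.08e-06), Ephx1 by 0.72 ± 0.087 (adjusted p = 2.12e-05) and Acer2, undetected on the control array at 8 h, by 0.29 ± 0.075 (adjusted p = 0.00671). 1700007K13Rik and Pltp were detected at 16 h and on no array at 8 h. They entered the fit through the arrays where they are high, so no test is given for them, and their signals were at least 2.21-fold and at least 1.28-fold higher at 16 h.

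Between the control arrays alone the value was higher at 16 h by 1.98 for Dcxr, 1.03 for Abhd4 and 0.63 for Ephx1. Of the 35 p53 targets 26 rose and 0 fell with time, with a median of 0.48, Cdkn1a by 0.95 ± 0.071 and Mdm2 by 0.70 ± 0.12. Among the relatives of the genes 3 rose and 5 fell of 22 sphingolipid enzymes, and 1 and 4 of 15 ABHD and related hydrolases. Of 8 lipid transfer genes and LXR targets 2 rose and 4 fell, and of 8 carbonyl enzymes 0 and 1. The counts were 2 and 1 of 11 NRF2 targets, 2 and 0 of 7 xenobiotic enzymes, and 2 and 4 of 9 elongation factors. With time 11.7% of all genes rose and 34.1% fell. Scaling to array medians moved the median of all genes from -0.105 to 0.09 and the share of rises from 25.5% to 86.3%, with Acer2 at 0.49.

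**Figure D4:**
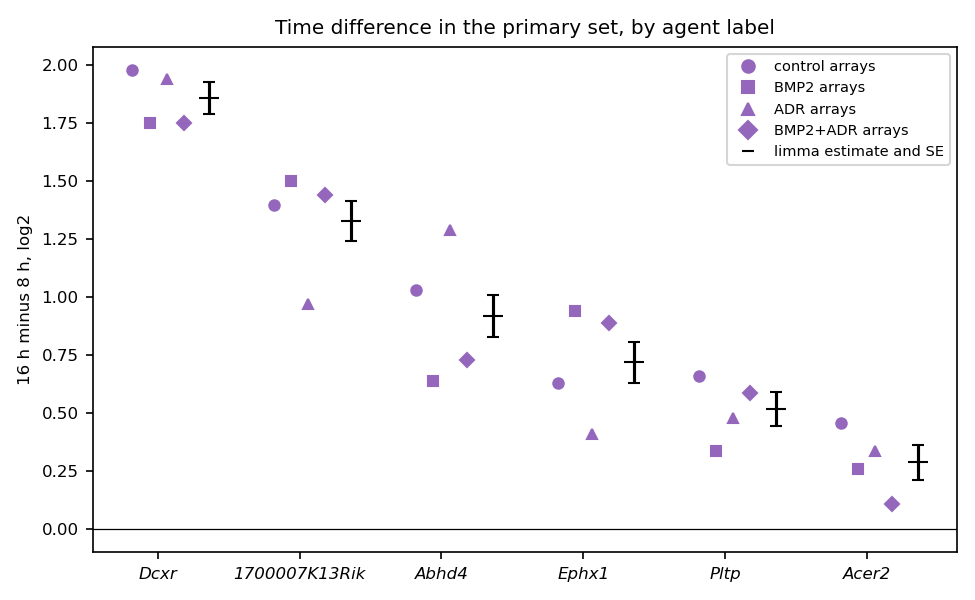
Difference in log2 value between 16 h and 8 h (y axis) for 6 genes (x axis) in the primary set. Purple points are single pairs of arrays by agent label, and black bars are the limma estimate with its standard error. 1700007K13Rik and Pltp were undetected at 8 h, so their points are measured values of undetected probes, and the Dcxr pairs lie between 1.75 and 1.98.

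Deletion of Smad1 was a further comparison, between the genotype labels. By label, Dcxr, 1700007K13Rik, Ephx1 and Abhd4 did not pass between Smad1-/- and Smad1f/f in the transformed set. Their differences ran from -0.11 (Dcxr) to -0.03 (Abhd4) and adjusted p from 0.621 to 0.912 (limma). Acer2, Pltp, Eef1a2 and Krtap1-5 differed by 0.01, 0.10, -0.04 and -0.06, given without a test. Krtap1-5 and Eef1a2 were detected on 2 and 4 of the 8 transformed arrays, Acer2 and Pltp on 5 and 1700007K13Rik on 6. Krtap1-5, Eef1a2, Acer2 and Pltp entered the fit through the arrays where they are high. The other pairs of Krtap1-5 and Eef1a2 compared undetected signals, and those of Acer2 and Pltp held 1 detected array. Dcxr, Ephx1 and Abhd4 alone were detected on all 8. Of 10275 genes 14 passed, or 0.136%, and 1063 had an unadjusted p under 0.05. The p53 list gave 0 in either direction, with a median of -0.04, and 0 of the 8 lists of relatives had a member that passed.

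The cilia genes were compared with 1700007K13Rik. Of 6 other microtubule proteins of cilia tested in the transformed set, 1 rose and 1 fell with both agents. Enkur rose by 0.45 ± 0.11 and Mns1 fell by 1.15 ± 0.091, where 26.0% of all genes rose and 33.2% fell. Of 5 in the primary set 0 passed with the BMP2 label, and 0 rose and 3 fell with time. Of all genes 6.75% rose and 7.31% fell with that label, and 11.7% and 34.1% with time.

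The genes most like each member were found by Pearson correlation over the 16 arrays after centring each set on its mean, and these arrays share their treatments. Eef1a2 and Krtap1-5 were detected on 4 and 2 arrays, and their values stood far above the rest on the 2 transformed arrays with both agents, which dominate their correlations. 1700007K13Rik was closest to Tmbim4 (0.99), Zfp219 (0.989) and Fam122b (0.987). Acer2 was closest to Tmc7 (0.993), Fas, the death receptor and p53 target (0.99), and Lynx1 (0.989). Dcxr and Abhd4 were closest to each other (0.985), then to Nipal4 (0.976) and Pmm1 (0.974) for Dcxr and to Ttpal (0.981) and Itm2a (0.974) for Abhd4. Ephx1 stood with Ass1, the argininosuccinate synthase (0.978), Ctsb, the protease cathepsin B (0.955), and Itm2b (0.953). Pltp stood with Atp6v1e1, a proton pump subunit (0.982), St14 (0.972) and Tnfrsf18 (0.965). Eef1a2 stood with Sag, the retinal arrestin (0.993), Sncg (0.989) and Itgb4, an integrin of epithelia (0.988). Krtap1-5 stood with Eef1a2 (0.985), Akr1b8, an aldo-keto reductase (0.982), and Got1l1 (0.981). Over the 28 pairs within the group the correlation ranged from 0.49 to 0.99, with a median of 0.80, which restates that they were selected for high values on the same arrays.

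The sizes above are understated for dim probes, because the deposited values keep the background. With limma's neqc, which subtracts it, the difference with both agents in the transformed set was 40.4-fold for 1700007K13Rik, 8.53-fold for Dcxr, 4.2-fold for Abhd4 and 2.5-fold for Ephx1, the genes detected on the control arrays. The 1700007K13Rik controls lay near background, with signals of 106.5 and 103.8, so its fold is uncertain.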

How the data were processed

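Total RNA of 16 MEF samples was hybridised to Illumina arrays and read out with GenomeStudio 2011.1, per the submitters' processing notes. The deposited bead signals are an intensity per probe with no background subtraction. The deposited detection columns hold 1 minus the detection p-value and were turned round. The authors' deposited log2 values, used here, proved to be the log2 signal minus the array's 75th percentile and minus the probe's median over the arrays. The deposited signals of the Smad1-/- BMP2 array repeat another array's and were restored from the log2 values, 99.9% of them within 0.01 of the 0.1 step of the signals.

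Of 24613 probes 20984 name 1 gene, 1 names several and 3628 none. A feature entered a fit if 2 or more of its arrays had a detection p under 0.05, the brightest probe standing for its gene. limma 3.58.1 in R 4.3.3 was fitted per set with additive agent label and genotype or time. With 1 array per condition the spread comes from departures from additivity and may be technical, and p-values are two-sided and Benjamini-Hochberg adjusted over all genes tested. A gene "rose" or "fell" if its adjusted p was under 0.05, and bare ± values are the SD of 2 pairs or, for tested genes, the SE. On simulated data 4.31% of calls were false for time, 6.13% for genotype, 6.76% for BMP2 in the transformed and 6.73% in the primary set, with 200 changed genes.

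The genes of the group, the gene lists and the tests were chosen with earlier results of these data known. Named are the 8 genes, Cdkn1a and Mdm2, up to 3 genes per list with the highest absolute difference among those that passed, and the 3 genes most correlated with each member. Id1, Id3, Smad1 and close relatives of the members were added to these by name. Counts of a list leave out the members. Alternatives were neqc (offset 16), median scaling, quantile normalization, the mean of probes, no filter, detection on every array, robust variance, 1 fit of all 16 arrays, a size rule of 0.5 and leaving out each array. Promoters are the 250 bases before each start in RefSeq's table (GRCm38.p6), in which all 8 genes matched. Abhd4 has 2 starts, and the Acer2 window and the second Abhd4 window reach into the annotated gene. Figures were drawn with Python 3.11.15.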

Additional observations from a re-analysis of the deposited data

Results flagged for a closer look

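Pltp lay on opposite sides of its controls in the 2 sets, higher than control in both transformed pairs and lower in both primary pairs. The difference between the sets (transformed minus primary, mean of 2 pairs each, log2) was 0.79 with the BMP2 label and 1.78 with both agents. Cdkn1a differed the other way with the ADR label, lower than control in both transformed pairs and higher in both primary pairs, by -0.42. None of these 3 differences was tested. In the Pltp case the 8 h arrays and the transformed controls did not detect the probe, and the sets differ in time and in the time of their controls.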

How the results depend on the processing

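The count of raised genes in the transformed set was 8 under every alternative run. The counts in the primary set and in both sets were 1 under each alternative except the size rule of 0.5, which gave 2 and 2. They were 1 to 1 and 8 to 8 (transformed) when arrays were left out in turn. Without an array the rule asked only the remaining pair to pass, so no count could fall. The looser rule of 0.5 could not lower a count either, so neither alternative tests these counts. For single genes 835 of 864 values kept their direction. The time results of Dcxr, Abhd4, Ephx1 and Acer2, which are not independent of the choice of genes, passed in 63 of 63. The genotype results of the 8 genes passed in 0 of 123. For genes not detected on every transformed array these genotype results rest partly on undetected signals. Acer2, Pltp, Eef1a2 and Krtap1-5 entered these fits through the arrays where they are high, so nothing is read from their part. The genotype count of 14 genes became 0 with quantile normalization, 0 with the mean of probes, 69 without a filter, 2 with robust variance and 94 in 1 fit of all 16 arrays, and ranged from 0 to 65 when arrays were left out, with 65 without either BMP2 array, 5 without either ADR array and 0 without either control or either BMP2+ADR array. The time count of 4325 became 12148 without a filter, where more genes were tested, and ranged from 3189 to 3765 when arrays were left out. For the ADR label in the transformed set 634 became 395 with neqc, 386 with median scaling and 403 with quantile normalization, and 35 to 545 when arrays were left out (35 and 110 without the Smad1f/f and Smad1-/- control, 165 and 303 without the Smad1f/f and Smad1-/- ADR array), where the share of rises was 25.4% against 50.4% with neqc. That share in the primary set was 62.3% for the ADR label and 84.1% with median scaling. When arrays were left out the counts ranged from 3907 to 5413 (BMP2, transformed, 5288), 5098 to 6156 (BMP2+ADR, transformed, 6076), 466 to 1385 (BMP2, primary, 1327, lowest without the 16 h BMP2 array), 29 to 55 (ADR, primary, 53) and 722 to 1371 (BMP2+ADR, primary, 1378, lowest without the 16 h BMP2+ADR array). In these 3 primary counts each control array and each array of the label itself moved the count by over 1.5 times. Without an array its partner is assumed to vary like the others, and the cause of these shifts was not tested. No paired analysis was possible because each group has 1 array, labelled replicate 1, so replicate numbers pair nothing beyond the genotype or time that each fit already holds as a term. Slides are not named in the files used here, so no slide block was fitted. Signals near background limit what can be said of Pltp, Eef1a2 and Krtap1-5. The same holds for 1700007K13Rik at 8 h and on the transformed control and ADR arrays.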
